A study of Mus musculus with 32 samples.

Results

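The V2r receptors described here are the genes whose symbol is Vmn2r followed only by a number of 80 or higher. Vmn2r88, Vmn2r115 and Vmn2r116, which belong with the receptors of known ligand, were left out, and so were pseudogene symbols ending in -ps. This rule uses names only and gave 41 of the 49671 genes in the deposited tables, and 41 of the 123 genes with a plain Vmn2r number. RNA was sequenced from the neuroepithelium of the vomeronasal organ (VNO) of 32 individual mice, 4 females and 4 males of each of 4 inbred strains at postnatal day 42. The strains are labelled C57/BL6 (B6), 129S6/SVEV (129), SJL/J (SJL) and SWR/J (SWR), with no transgene or treatment given for any of them. All values below are normalized counts, the uniquely placed read pairs of a gene divided by the size factor of its library, unless another scale is named. Reads were placed on the B6 reference genome in every strain, so that a lower count in 129, SJL or SWR can come from less RNA or from reads that no longer match the reference, and these cannot be told apart here.

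V2rs are G protein-coupled receptors with a long extracellular N-terminus, made by the basal sensory neurons of the vomeronasal organ. These neurons signal through the G protein subunit encoded by Gnao1 and respond to peptides and proteins in urine, tears and other secretions. A basal neuron chooses very few V2rs of the larger families and adds a V2r of the small family C (Vmn2r1 to Vmn2r7) as a broadly expressed partner, and many also carry H2-Mv proteins of the MHC class Ib type. The genes lie in tandem clusters in which neighbours are often near copies of each other, and such clusters are known to vary between mouse strains. In tissue RNA, fewer neurons that chose a receptor and less RNA of it per neuron cannot be told apart.

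The members lay in 9 places of GRCm38. Chromosome 17 held 29 of them, with 22 in the first cluster (chr17:17703747-20596423), 5 in a second (chr17:22544504-23479699) and 2 farther along (chr17:55590370-57545505). Chromosome 10 held 4 proximal genes, Vmn2r80 to Vmn2r83 (chr10:79148769-79493585), and 4 distal ones, Vmn2r84 to Vmn2r87 (chr10:130377925-130497396). Single members stood on chromosome 14 (Vmn2r89), chromosome X (Vmn2r121), chromosome 4 (Vmn2r125) and the unplaced scaffold JH584292.1 (Vmn2r122). GENCODE M21 lists Vmn2r125 as an unprocessed pseudogene, whereas the deposited table calls it protein coding.

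The libraries held 5106398 to 18640871 reads on genes. The defining markers of basal neurons, Gnao1, Vmn2r1, Tfap2e and Robo2, had reads in every library. Their summed CPM (counts scaled to library size) had medians of 579 (B6), 665 (129), 603 (SJL) and 777 (SWR). The markers did not rank the strains alike. Median normalized counts of Vmn2r1 (4052 against 2465 to 2767) and Robo2 (2889) were highest in SWR, those of Gnao1 (1865) and Tfap2e (413) in 129. Of 5 lymphocyte markers, summed medians stayed between 0.463 CPM in 129 and 1.79 CPM in SWR, and those of 5 red blood cell markers between 13.9 in 129 and 27.5 in SWR. Macrophage markers summed to medians from 31.9 CPM in 129 to 79.8 CPM in B6. Reads on gene families of other tissues, taken as library background, ran from a median of 0.668 rpm (reads scaled to library size in the same way) in 129 to 9.08 rpm in B6. With that background as a covariate, 69 of the 70 calls described below were made again. A pair of 129 males (numbers 1 and 3) stood apart, with 0.163% and 0.175% of their reads on members against 0.231 to 0.249% in the other 129 libraries, and ciliated cell markers at 402 and 133 CPM against 64.0 to 98.1 CPM. Without both libraries 68 of the 70 calls were made again, and the 2 lost are named below. B6 female 1 also had high ciliated cell markers, 265 CPM against 80.6 to 93.1 CPM in the other B6 libraries. Its share of reads on members, 0.354%, lay within the B6 range (0.338 to 0.421%). Without B6 female 1, 69 of the 70 calls were made again.

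Members were detected throughout, and 1 of the 1312 combinations of member and library had 0 reads, Vmn2r103 in 1 SJL library. Mean levels over the 32 libraries ran from 11.1 for Vmn2r103 to 5107 for Vmn2r89, with 9 members below 100 and 13 above 1000. Counts per kb of exon allow for annotated length, but not for reads lost to near copies. On that scale the highest means were 848 for Vmn2r122, 668 for Vmn2r81, 566 for Vmn2r89, 541 for Vmn2r121 and 277 for Vmn2r90. Per kb of coding sequence Vmn2r89 came first (3297), followed by Vmn2r121 (1159), Vmn2r122 (1024) and Vmn2r81 (865), and Vmn2r90 ranked 13, so that the first 4 were the same genes in another order. Expression was concentrated in few genes. The 5 highest members of a library made up 52.7% of the summed member counts by median in B6, 47.4% in 129, then 42.1% in SJL and 41.9% in SWR.

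**Figure D1:**
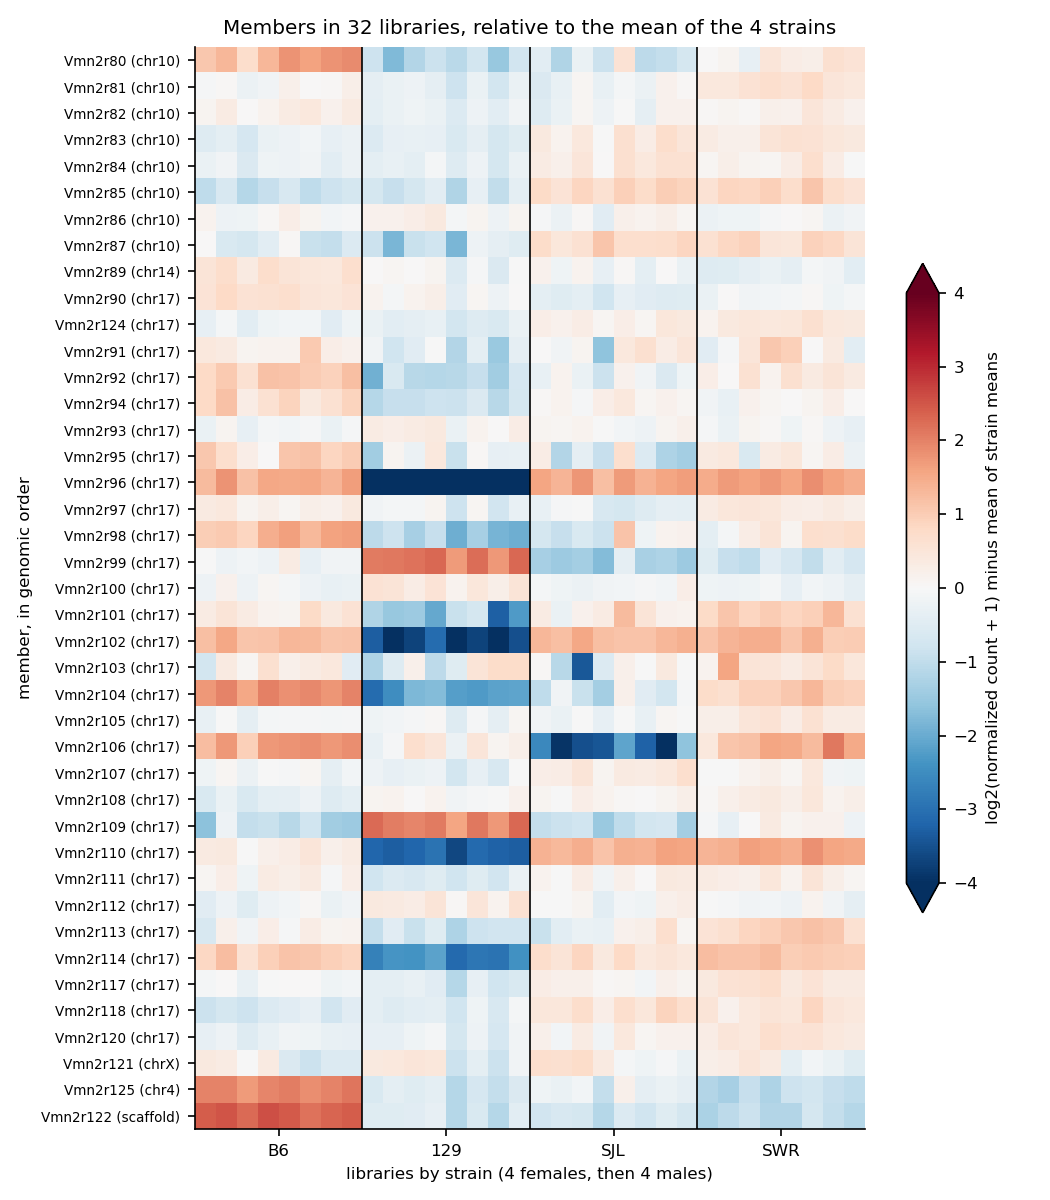
Each row is a member in genomic order and each column a library, 4 females and then 4 males per strain, coloured by log2(normalized count + 1) minus the mean of the 4 strain means. Dark blue blocks fill the 129 columns of Vmn2r96, Vmn2r102, Vmn2r104, Vmn2r110 and Vmn2r114 and the SJL columns of Vmn2r106, and red fills the B6 columns of Vmn2r122 and Vmn2r125.

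Strains were compared to find which of these receptors differ between genetic backgrounds. By edgeR's quasi-likelihood test, 22 of the 41 members were differentially expressed (DE), that is, had an absolute log2 fold change (LFC) above 1 at a false discovery rate (FDR) under 0.05, in at least 1 of the 6 strain pairs, against 19.8% of the 18382 genes tested. Of the other V2r genes 57 of 80 were DE. With no limit on the fold, 41 of 41 members passed an FDR of 0.05 in some pair, against 80.1% of all genes. By pair these were 31 members for B6 vs 129 (52.8% of all genes), 31 for SJL vs 129 (38.3%), 36 for SWR vs 129 (41.8%), 28 for SJL vs B6 (45.7%), 26 for SWR vs B6 (40.9%) and 20 for SWR vs SJL (32.5%). Medians of the 4 strains differed by 1.24 times (Vmn2r86) to 76.2 times (Vmn2r96), with 20 members under 2 times and 8 above 10 times. The strain with the lowest median was 129 for 23 members, B6 for 8, and each of SJL and SWR for 5.

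Pairs with 129 held most of the calls, and nearly all were higher in the other strain. Between B6 and 129, 16 members were DE (background 11.1%), 14 higher in B6 (8.72%) and 2 higher in 129 (2.4%). Between SJL and 129 there were 13 (8.38%), 10 higher in SJL (5.61%) and 3 lower (2.76%). Between SWR and 129 there were 16 (7.73%), 14 higher in SWR (4.62%) and 2 lower (3.11%). These 3 comparisons share the 129 libraries. Of 41 members, 14 were DE between SJL and B6 (7.99%), 4 higher in SJL (2.67%) and 10 lower (5.33%). Between SWR and B6, 8 were DE (8.05%), 5 higher in SWR (2.52%) and 3 lower (5.53%), and when libraries were scaled to their reads on other V2r genes the split was 3 higher and 5 lower. SWR and SJL had the fewest, with 3 members, all higher in SWR (2.19%) and 0 lower (2.31%), against 4.5% of all genes in either direction. This last count was 2 without SJL female 4, 5 without SJL male 1 or without SJL male 3, and 5 in females alone.

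**Figure D2:**
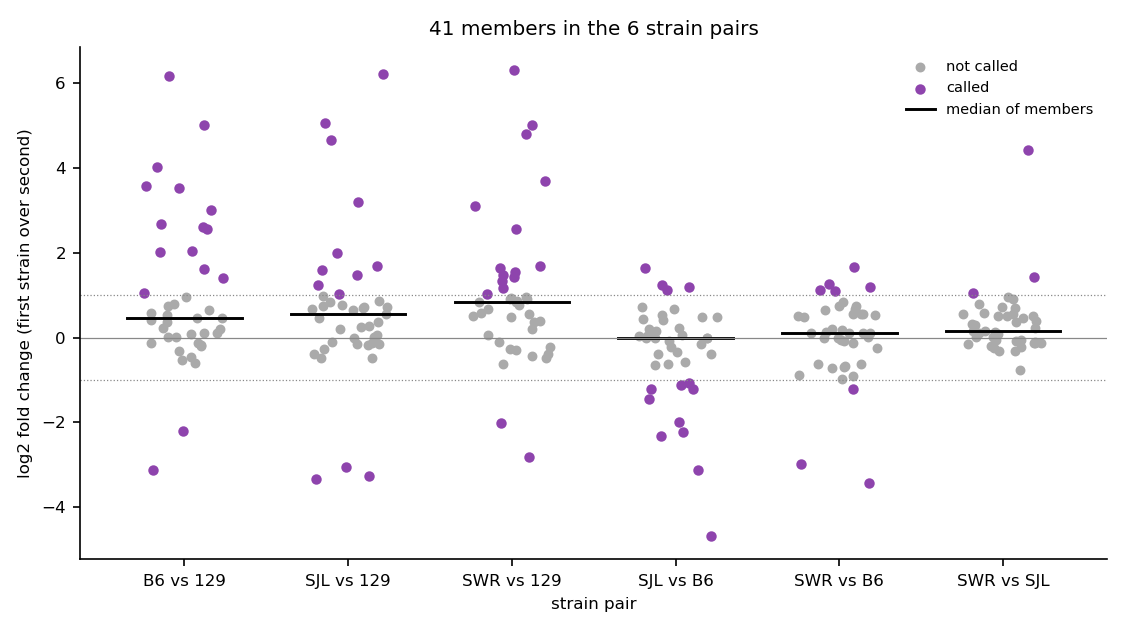
Points are the log2 fold changes of the 41 members in each strain pair, purple where DE and grey where not, with the median of the members as a bar and dotted lines at an LFC of 1 and -1. The medians lay at 0.47, 0.56 and 0.84 in the pairs with 129 and between -0.01 and 0.16 in the others, while the median of all genes tested lay between -0.02 and 0.02.

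Against 129 most members had a positive LFC, 31 of 41 for B6, 28 for SJL and 31 for SWR. The median LFC was 0.47 for B6, 0.56 for SJL and 0.84 for SWR, and for the other V2r genes 0.33, 0.40 and 0.63. Scaled to reads on other V2r genes, which moved the median LFC of all genes to between -0.30 and -0.15 in these pairs, the medians of members were 0.32, 0.41 and 0.56. Without the 129 males 1 and 3 they were 0.35, 0.43 and 0.72. Ranges of the 8 libraries were apart between B6 and 129 for 23 members (background 14.4%), between SJL and 129 for 19 (11.9%) and between SWR and 129 for 27 (13.5%). They were apart between SJL and B6 for 20 (13.1%) and between SWR and B6 for 22 (12.5%). Between SWR and SJL they were apart for 9 members, and for 1876 of the 18382 genes.

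In all 7 of 41 members, against 2.11% of all genes, were DE lower in 129 than in each other strain. Vmn2r96 (chr17:18573151-18616003) is the clearest. It ranged from 19.5 to 34.6 in 129 (median 28.1), from 1600 to 2443 in B6 (2049), from 1627 to 2406 in SJL (2100) and from 1914 to 2590 in SWR (2144). Every 129 mouse thus stood far below every other mouse, and the other 3 strains overlapped. The LFC was 6.30 ± 0.12 (SE) for SWR against 129 (edgeR FDR = 3.39e-30), the largest of any member.

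Vmn2r102 (chr17:19660328-19709533) showed the same pattern. Its counts were 10.7 to 27.2 in 129 (median 17.4), 518 to 691 in B6 (540.5), 527 to 692 in SJL (578) and 468 to 657 in SWR (569). The groups did not overlap between 129 and any other strain, and the LFC of SJL against 129 was 5.05 ± 0.12 (FDR = 4.34e-27). The neighbouring gene Vmn2r103, whose coding sequence is 95.6% identical to that of Vmn2r102, was near the limit of detection in all strains, with medians from 8.90 in 129 to 14 in SWR. The coding sequences of both genes share no stretch as long as a read.

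The windows at both starts are printed because the genes are near copies with levels so different in 3 strains. Each runs from 250 bases before to 50 bases after the RefSeq start on GRCm38.p6, 5′ to 3′ on the gene's own strand, here the plus strand. In every window printed here the 50 bases after that start begin with ATG, the letters of a start codon. The RefSeq start may thus be that of the coding sequence, and the start of transcription was not located. Capitals mark the letters TAATTA, a core that many homeodomain factors bind, and TATAAA, the letters of a TATA box, both searched on either strand. Whether TATAAA acts as a TATA box at these places was not tested.
Vmn2r102 (chr17:19660149-19660448): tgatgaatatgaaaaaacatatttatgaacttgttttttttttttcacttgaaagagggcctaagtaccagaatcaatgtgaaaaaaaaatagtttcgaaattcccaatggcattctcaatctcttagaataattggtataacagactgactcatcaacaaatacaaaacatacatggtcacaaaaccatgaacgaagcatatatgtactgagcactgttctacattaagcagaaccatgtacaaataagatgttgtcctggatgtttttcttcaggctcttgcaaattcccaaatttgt
Vmn2r103 (chr17:19773113-19773412): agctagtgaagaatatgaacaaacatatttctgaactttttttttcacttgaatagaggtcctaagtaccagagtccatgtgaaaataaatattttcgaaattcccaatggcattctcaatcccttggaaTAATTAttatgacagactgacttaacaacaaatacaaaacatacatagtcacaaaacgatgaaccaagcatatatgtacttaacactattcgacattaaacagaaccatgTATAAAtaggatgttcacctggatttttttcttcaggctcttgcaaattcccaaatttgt
Of 293 aligned bases 265 were identical (90.4%). The window of Vmn2r103 held TAATTA once and TATAAA once, and that of Vmn2r102 held neither.

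Vmn2r110 (chr17:20567760-20596423) had 31.8 to 51.9 counts in 129 (median 43.5), 409 to 572 in B6 (504), 898 to 1247 in SJL (1093) and 1054 to 1473 in SWR (1197). It formed 3 levels that did not overlap, 129 lowest, B6 between, and SJL with SWR highest. The LFC was 4.80 ± 0.09 for SWR against 129 (FDR = 1.49e-30) and 1.27 ± 0.07 for SWR against B6 (FDR = 4.21e-17), while SWR and SJL differed by an LFC of 0.14 that did not pass (FDR = 0.0914). An exon of Vmn2r110 overlaps Gm5145 on the opposite strand, and the counting used strand.

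Vmn2r104 (chr17:20028418-20048336) was graded over all strains. It ranged from 30.2 to 78.3 in 129 (median 57.9), 101 to 301 in SJL (176), 411 to 667 in SWR (503) and 775 to 1073 in B6 (966), with no overlap between any 2 of the strains. The LFC was 4.01 ± 0.16 for B6 against 129 (FDR = 1.24e-20) and -2.33 ± 0.14 for SJL against B6 (FDR = 1.04e-15). SWR and B6, whose ranges were apart, differed by an LFC of -0.91, under the limit of 1.

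Vmn2r114 (chr17:23285392-23312537), the only one of the 7 in the second cluster, ranged from 22.5 to 44.5 in 129 (median 33.4), 300.2 to 475 in B6 (391), 261 to 365 in SJL (289) and 393 to 480 in SWR (429). The 129 libraries stood below all others, and the LFC of SWR against 129 was 3.69 ± 0.11 (FDR = 1.87e-24). Its closest relative Vmn2r117 (96.6% identical over the coding sequence) was also higher in SWR than in 129, 495 to 624 (median 532) against 173 to 308 (287), with an LFC of 1.02 ± 0.08 (FDR = 3.74e-13) that was 0.92 without the 129 males 1 and 3 and 0.75 when scaled to other V2r reads. Of the read-length windows of the coding sequences of Vmn2r117 and Vmn2r114, 27.7% and 21.7% occur in another gene.

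Vmn2r98 and Vmn2r101 completed the 7 at lower levels. Vmn2r98 had 13.1 to 29.8 counts in 129 (median 20.9), 28.03 to 120 in SJL (41.5), 41.5 to 91.4 in SWR (72.5) and 98.1 to 174 in B6 (142). The 129 range overlapped that of SJL and of no other strain, with an LFC of 2.68 ± 0.23 for B6 against 129 (FDR = 9.75e-12). The LFC of SJL against 129 was 1.24, and 0.97 without SJL male 1, the library at 120 counts, so that 6 members rather than 7 then fulfil the definition. Females of both strains were close, with means of 31.4 in SJL and 26.1 in 129, whereas males had 72.1 and 15.4, and in females alone the LFC was 0.28 (FDR = 0.40). Vmn2r101 had 1.19 to 12.0 counts in 129 (median 6.57, from 1 to 11 reads) and medians of 26.0 (B6), 24.0 (SJL) and 38.2 (SWR). Each 129 library lay below each library of the other strains, and the LFC of SWR against 129 was 2.56 ± 0.23 (FDR = 5.28e-11).

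**Figure D3:**
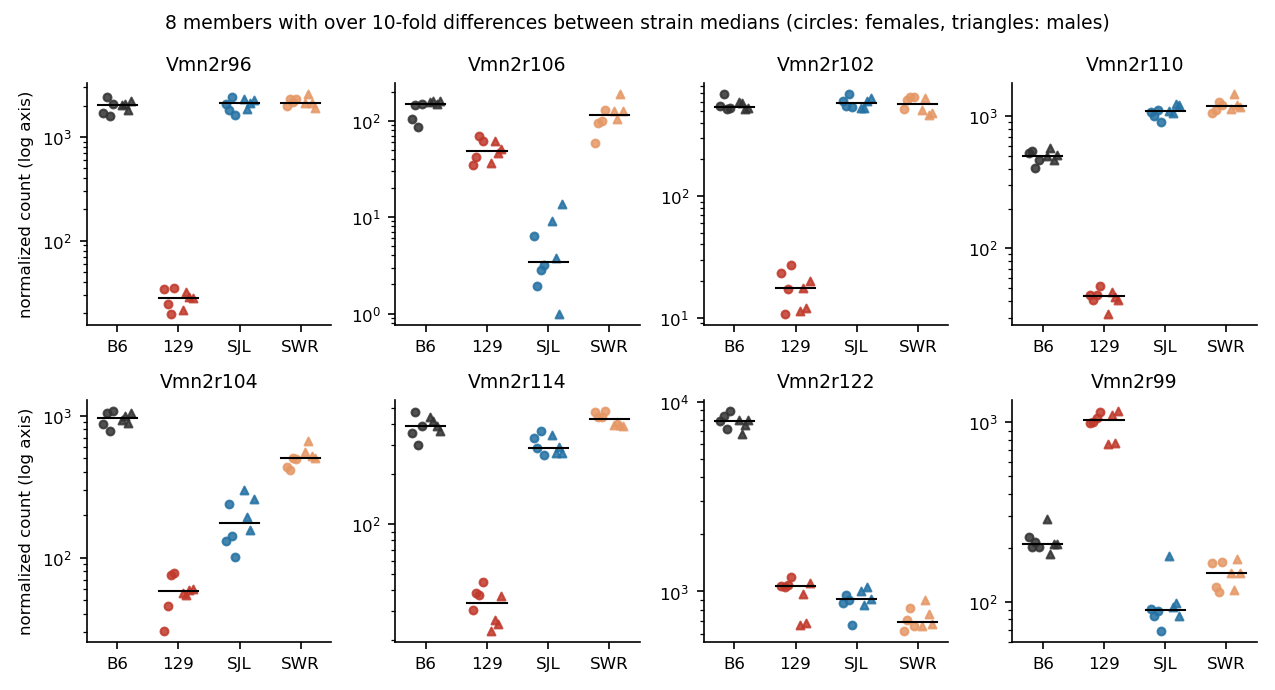
Normalized counts on log axes for the 8 members whose strain medians differ over 10 times, 1 point per library, circles for females and triangles for males, with the strain median as a bar. In Vmn2r96, Vmn2r102, Vmn2r110, Vmn2r104 and Vmn2r114 all 8 points of 129 lie lowest, in Vmn2r106 all of SJL, in Vmn2r122 all of B6 lie highest, and in Vmn2r99 all of 129.

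The 7 genes were picked as low in 129 from these same libraries, so a low 129 sum follows from the choice. They summed to 167 to 269 counts in 129 and 3487 to 5915 in the other libraries. They made up a median of 0.787% of all member counts in 129, against 10.95% (B6), 12.6% (SJL) and 13.9% (SWR).

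Vmn2r99 and Vmn2r109 went the other way and were DE higher in 129 than in each other strain (2 of 41 members, against 0.707% of all genes). Vmn2r99 (chr17:19361949-19401098) ranged from 762 to 1154 in 129 (median 1028), 184 to 288 in B6 (209), 68.5 to 180 in SJL (90.6) and 113 to 174 in SWR (145). The 129 libraries were above all others, by an LFC of 3.32 ± 0.14 against SJL (FDR = 3.06e-20). SJL was also lower than B6, with an LFC of -1.13 ± 0.14 (FDR = 7.00e-08), and -0.94 in males alone, where the highest SJL library stands.

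Vmn2r109 (chr17:20539969-20564756) had 77.7 to 129.5 counts in 129 (median 110), 7.46 to 22.2 in B6 (12.0), 8.43 to 15.8 in SJL (13.1) and 20.3 to 33.1 in SWR (26.6). It was 8.77-fold higher in 129 than in B6 (LFC of B6 against 129 -3.13 ± 0.16, FDR = 2.16e-17). Vmn2r110, the next gene 3.004 kb away on the same strand and 92.9% identical in coding sequence, was at its lowest in 129. The ratio of Vmn2r110 to Vmn2r109 was 0.316 to 0.493 in 129 and 24.4 to 130 in the other libraries, so that the order of their counts was reversed in every 129 mouse. Whether 129 reads of one gene were placed on the other was not tested. In the reference, 7.30% of the read-length windows of the coding sequence of Vmn2r109 also occur in Vmn2r108 or Vmn2r110.

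The start windows of both neighbours are shown for this reversal, on the minus strand and otherwise as above.
Vmn2r109 (chr17:20564707-20565006): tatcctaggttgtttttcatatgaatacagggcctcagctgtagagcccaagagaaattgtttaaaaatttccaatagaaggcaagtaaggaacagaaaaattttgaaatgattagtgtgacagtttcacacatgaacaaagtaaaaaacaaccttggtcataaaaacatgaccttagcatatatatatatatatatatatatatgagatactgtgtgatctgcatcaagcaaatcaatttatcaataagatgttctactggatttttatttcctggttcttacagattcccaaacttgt
Vmn2r110 (chr17:20596210-20596509): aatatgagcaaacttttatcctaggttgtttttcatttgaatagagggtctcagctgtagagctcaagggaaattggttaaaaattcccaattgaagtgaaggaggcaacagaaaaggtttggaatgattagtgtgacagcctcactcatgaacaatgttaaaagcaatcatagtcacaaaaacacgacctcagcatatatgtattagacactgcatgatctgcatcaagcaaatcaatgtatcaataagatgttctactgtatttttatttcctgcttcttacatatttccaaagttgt
Neither window held TAATTA or TATAAA, nor the Ebf core CCCNNGGG, and 245 of 284 aligned bases were identical (86.3%).

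**Figure D4:**
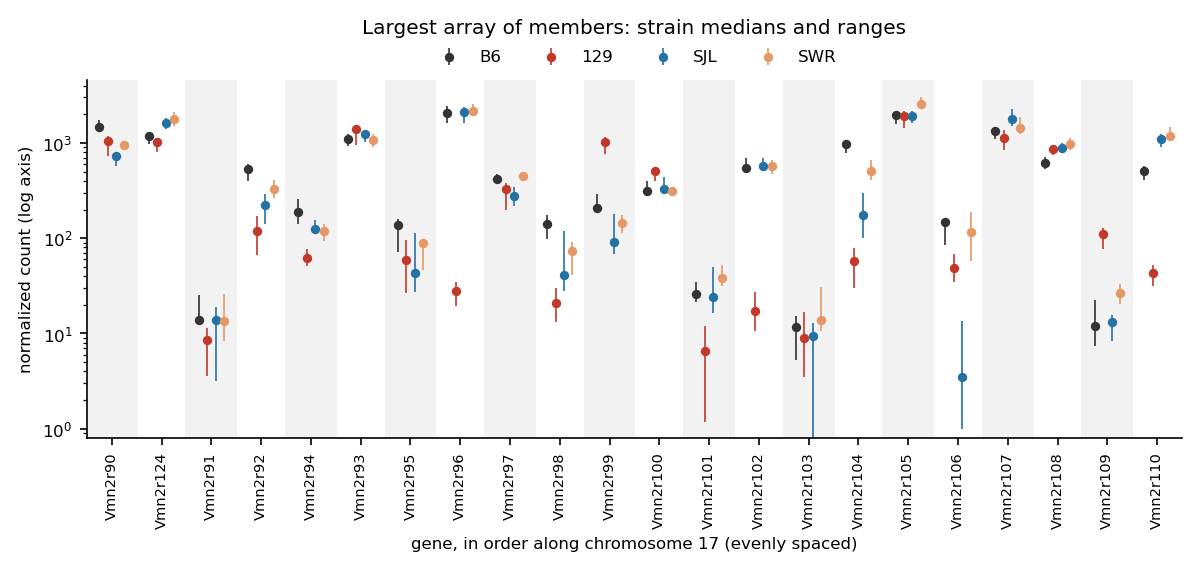
Strain medians (points) and ranges of 8 libraries (lines) on a log axis for the 22 genes of the first chromosome 17 cluster in their order along the chromosome. Genes with 129 far below (Vmn2r96, Vmn2r102, Vmn2r104, Vmn2r110) or far above (Vmn2r99, Vmn2r109) stand between genes with smaller differences. In Vmn2r97, Vmn2r105 and Vmn2r108, for example, strain medians differ by less than 2 times. Ranges can still be apart there, as for Vmn2r105 in SWR (2396 to 3065) against every other strain (highest 2159).

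Along the first chromosome 17 cluster 13 of 22 genes were DE in some pair, against 19.8% of all genes and 57 of the 80 other V2r genes. The 6 of the 129-low genes in it held positions 8, 10, 13, 14, 16 and 22, and the 129-high genes positions 11 and 21, so that both kinds were interleaved. The genes at positions 9, 12, 15, 17, 19 and 20 (Vmn2r97, Vmn2r100, Vmn2r103, Vmn2r105, Vmn2r107 and Vmn2r108) were not DE in any pair. Nor were those at positions 2, 3 and 6 (Vmn2r124, Vmn2r91 and Vmn2r93), before the first of the 129-low genes. A same-strand exon of AC154379.1 overlaps Vmn2r107, and reads there cannot be told apart.

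Vmn2r106 (chr17:20266767-20285553) was the only member DE lower in SJL than in each other strain (background 0.473%). It had 0.985 to 13.6 counts in SJL (median 3.46), with 3 reads or fewer in 4 of the 8 libraries. Counts were 34.9 to 69.0 in 129 (median 48.7), 85.3 to 160 in B6 (147) and 58.1 to 189 in SWR (115.045). No SJL library reached the range of another strain, and the LFC of SJL against B6 was -4.67 ± 0.26 (FDR = 1.75e-16). In 129 it was also lower than in B6 (LFC of B6 against 129 1.41 ± 0.20, FDR = 3.06e-07).

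In B6, 3 of 41 members were DE higher than in each other strain, against 1.78% of all genes. By the same rule 0 members were lower in B6 (0.827% of all genes), higher in SJL (0.49%), higher in SWR (0.588%) or lower in SWR (0.495%) than in each other strain. Vmn2r122, on the scaffold, ranged from 6731 to 8904 in B6 (median 7951), 666 to 1193 in 129 (1064), 665 to 1055 in SJL (910) and 616 to 902 in SWR (692). Each B6 library was above every other library, and the other 3 strains overlapped. The LFC of SWR against B6 was -3.44 ± 0.11 (FDR = 8.30e-24).

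Vmn2r125, the annotated pseudogene at chr4:156344200-156355905, had 890 to 1199 counts in B6 (median 1072), 122 to 207 in 129 (178), 138 to 309 in SJL (224) and 108 to 162 in SWR (138). Again B6 stood apart from all others, with an LFC of -2.97 ± 0.11 for SWR against B6 (FDR = 1.27e-21). The ratio of Vmn2r122 to Vmn2r125 was 6.64 to 8.47 in B6, 4.83 to 6.15 in 129, 3.26 to 4.82 in SJL and 4.30 to 6.60 in SWR. Vmn2r125 is 95.7% identical to the pseudogene Vmn2r-ps159 and 93.9% to Vmn2r89.

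Vmn2r80 (chr10:79148769-79195012), at a low level, had 82.7 to 187 counts in B6 (median 142), 13.9 to 29.5 in 129 (25.3), 21.3 to 74.9 in SJL (28.8) and 39.8 to 78.2 in SWR (60.4). Every B6 library was above every other library, and the LFC of B6 against 129 was 2.55 ± 0.20 (FDR = 6.60e-13). Its close relatives Vmn2r81 and Vmn2r82, each 95.5 to 96.2% identical in coding sequence to its closest gene, as is Vmn2r80, were not DE in any pair, although Vmn2r81 was higher in each SWR library (2902 to 3776) than in each library of the other strains (1227 to 2524).

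Summed, the members gave 36823 to 46470 counts in B6, 28833 to 37664 in SJL, 32424 to 41125 in SWR and 19336 to 29942 in 129. Without Vmn2r122 and Vmn2r125 the ranges of B6 (28759 to 36974), SJL (28031 to 36510) and SWR (31619 to 40061) overlapped, and 129 (18548 to 28545) remained lowest with a small overlap with SJL. These 2 genes were picked as high in B6 from these same libraries, so a smaller B6 sum without them follows from the choice. They made up a median of 21.6% of member counts in B6 and 2.42 to 4.49% in the other strains. Members took 37.2 to 38.9% of the reads on all 123 V2r genes in B6, 32.1 to 34.0% in SJL, 31.7 to 33.4% in SWR and 28.3 to 31.01% in 129.

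A further group separated SJL and SWR from B6 and 129. In the distal chromosome 10 cluster, Vmn2r85 had 345 to 464 counts in SJL (median 412) and 348 to 516 in SWR (404), against 107 to 151 in B6 (128) and 101 to 186 in 129 (145). Vmn2r87, with no strain median above 54.1 counts, had 45.4 to 71.6 in SJL and 45.2 to 62.0 in SWR against 16.2 to 33.5 in B6 and 8.42 to 28.4 in 129. In both genes SJL and SWR overlapped and lay above B6 and 129, which overlapped. The LFC of SWR against B6 was 1.66 ± 0.11 for Vmn2r85 (FDR = 4.17e-15). For Vmn2r87 it was 1.18 ± 0.18 (FDR = 2.60e-06), and the largest was that of SJL against 129, 1.59 ± 0.19 (FDR = 1.36e-08).

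Vmn2r84, in the same cluster, also had ranges in SJL (1060 to 1631) and SWR (1040 to 1662) above those of B6 (702 to 947) and 129 (640 to 992), with LFCs of 0.49 to 0.76 that were under the limit. Vmn2r86, between Vmn2r85 and Vmn2r87, was the least variable member, with medians from 375 in SWR to 465 in 129 and no LFC larger than -0.26 in size. The ratio of Vmn2r86 to Vmn2r85 was 2.40 to 4.06 in B6 and 129 libraries and 0.851 to 1.18 in SJL and SWR libraries. Identity of the coding sequences to the closest gene was 96.4 to 97.7% for these 4. Of the read-length windows of these coding sequences, 17.5 to 24.8% occur in another gene, where a read cannot be placed uniquely by itself.

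The start windows of the cluster are shown because its genes are near copies of which Vmn2r85 and Vmn2r87 were DE between the strain groups and Vmn2r86 was not. They lie on the minus strand.
Vmn2r84 (chr10:130394192-130394491): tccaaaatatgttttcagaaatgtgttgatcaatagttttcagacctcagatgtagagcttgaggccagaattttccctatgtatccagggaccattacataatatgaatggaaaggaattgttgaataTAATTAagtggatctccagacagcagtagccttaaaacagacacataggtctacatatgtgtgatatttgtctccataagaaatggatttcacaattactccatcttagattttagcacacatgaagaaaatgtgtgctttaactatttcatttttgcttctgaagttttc
Vmn2r85 (chr10:130429563-130429862): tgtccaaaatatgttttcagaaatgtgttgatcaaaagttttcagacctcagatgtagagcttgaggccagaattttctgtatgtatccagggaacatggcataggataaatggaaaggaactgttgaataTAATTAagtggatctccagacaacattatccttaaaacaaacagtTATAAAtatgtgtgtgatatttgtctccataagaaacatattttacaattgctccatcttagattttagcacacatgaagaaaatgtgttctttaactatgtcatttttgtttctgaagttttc
Vmn2r86 (chr10:130455845-130456144): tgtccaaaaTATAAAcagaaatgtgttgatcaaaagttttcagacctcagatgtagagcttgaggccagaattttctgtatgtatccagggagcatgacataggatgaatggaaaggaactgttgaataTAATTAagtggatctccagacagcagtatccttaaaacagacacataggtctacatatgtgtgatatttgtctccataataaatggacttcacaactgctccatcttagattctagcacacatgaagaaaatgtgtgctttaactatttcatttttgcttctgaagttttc
Vmn2r87 (chr10:130497330-130497629): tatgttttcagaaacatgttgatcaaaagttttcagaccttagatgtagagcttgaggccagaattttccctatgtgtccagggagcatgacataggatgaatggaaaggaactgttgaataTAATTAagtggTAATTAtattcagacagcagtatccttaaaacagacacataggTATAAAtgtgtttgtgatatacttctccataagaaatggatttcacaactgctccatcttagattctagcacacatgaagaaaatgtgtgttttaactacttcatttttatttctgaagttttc
The 6 pairs of windows were 89.4 to 94.3% identical. Each held TAATTA, with a second copy in Vmn2r87. TATAAA was found once in Vmn2r85, Vmn2r86 and Vmn2r87 and not in Vmn2r84. The RefSeq starts lay 91 bases downstream of the GENCODE starts in Vmn2r84 and Vmn2r85, 156 in Vmn2r86 and 17 in Vmn2r87, so that distances from the start depend on the annotation.

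Over the 39 member windows that the RefSeq table holds, TAATTA was found in 12 (30.8%) against 5.29% of 32851 promoter windows of the same length, TATAAA in 11 (28.2%) against 13.6%, and CCCNNGGG in 2 (5.13%) against 13.7%. Many of these windows are near copies of each other and are not independent. The printed member windows have ATG at the RefSeq start, and whether the windows of other genes do was not examined. The shares may therefore compare unlike regions. Vmn2r122 and Vmn2r125 had no window. The RefSeq start lay within 100 bases of the GENCODE start in 19 of the 39, and 8576 bases downstream of it in Vmn2r96, whose window is not shown for that reason.

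Vmn2r118 (chr17:55590370-55625192), whose coding sequence is 75.8% identical over its aligned part to that of Vmn2r120, the closest member, followed the same strain groups. It had 826 to 1259 counts in SJL (median 1012) and 769 to 1243 in SWR (949) against 376 to 551 in B6 (444) and 392.1 to 643 in 129 (515). SJL and SWR were above B6 and 129 in every library, with an LFC of 1.18 ± 0.09 for SJL against B6 (FDR = 5.72e-13). Against 129 the LFCs were 0.99 and 0.90, under the limit.

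Among the other DE members B6 was highest in 4. Vmn2r92 ranged from 400.0 to 599.8 in B6 (median 531), 67.4 to 171 in 129 (119), 142 to 292 in SJL (224) and 263 to 404 in SWR (331), with an LFC of 2.05 ± 0.14 for B6 against 129 (FDR = 1.12e-14). Vmn2r94 had 142 to 260 counts in B6 (median 189) and 51.2 to 76.5 in 129 (61.7), an LFC of 1.62 ± 0.11 (FDR = 1.07e-14), with SJL (median 124.8) and SWR (119) between. Vmn2r90 had 1370 to 1756 in B6 and 577 to 799.5 in SJL, with the medians of 129 (1046) and SWR (947) between, and an LFC of SJL against B6 of -1.07 ± 0.07 (FDR = 1.37e-14). In these 3 genes no B6 library overlapped with the strain named.

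Vmn2r95 was the least certain call. It had 72.4 to 161 counts in B6 (median 136) and 27.1 to 114 in SJL (42.8), which overlapped, with an LFC of -1.22 ± 0.25 (FDR = 0.000151). The LFC of B6 against 129 was 1.05, and fell under 1 without B6 female 1 (0.998), without 129 female 1 (0.95), without 129 male 1 (0.96) and without 129 males 1 and 3 together (0.92). Vmn2r113 was highest in SWR, 178 to 274 (median 229) against 51.5 to 88.5 in 129 (69.3). The LFC was 1.65 ± 0.14 (FDR = 1.78e-11). Of the read-length windows of its coding sequence, 71.5% also occur in the pseudogenes Vmn2r-ps128 to Vmn2r-ps131. Coding sequence makes up 2.58 kb of its 19.2 kb of exon, and sharing over the rest was not examined.

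The remaining 19 members were not DE in any pair, with LFCs between -0.88 (Vmn2r89, SWR against B6) and 0.96 (Vmn2r103, SWR against SJL). This is a limit of fold and not a sign of equal levels, since each of the 19 passed an FDR of 0.05 in some pair. Vmn2r89 (chr14:51451857-51464172), the member with the most reads, ranged from 6265 to 8079 in B6 (median 7080), 3288 to 5375 in 129 (4924), 3739 to 5504 in SJL (4690) and 3449 to 4709 in SWR (3827), so that B6 stood above all others. On chromosome 17, Vmn2r105 (1428 to 3065 over all libraries) and Vmn2r93 (914 to 1517) varied by less than 2 times between strain medians.

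Near copies limit what these counts can resolve. Coding sequences were compared (for Vmn2r125 its transcript), while counts also cover other exon bases, where sharing was not examined. Over the 40 members with a transcript sequence in GENCODE M21, identity to the closest gene over aligned bases was 72.3 to 99.0% (median 94.8%). The lowest, Vmn2r120, aligned over 58.6% of its coding sequence. Of the 40, 19 reached 95%, and 25 shared at least 1 stretch of read length with another gene. Vmn2r91 and Vmn2r92 were the closest pair, 99.0% identical, with 37.8% and 39.4% of their windows shared. Counts of Vmn2r91 were 3.16 to 26.2 over all libraries against 67.4 to 599.8 for Vmn2r92, so that the pair was unequal in every library (ratio 6.44 to 45.0). Of the 15 members without a shared stretch 8 were DE in some pair, and of the 25 with one 13, against 19.8% of all genes. Among the 10 members with over 10% of their windows shared 7 were DE. Vmn2r122, for which no sequence was compared, was DE too.

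Males and females were compared over all strains. By sex 0 members were DE (absolute LFC above 1, edgeR FDR under 0.01; background 0.0381%), 12 had an unadjusted p under 0.05 (8.97% of all genes), and DESeq2 also gave 0 DE members. At an FDR of 0.05 without a limit on fold 1 member passed (background 0.283%), Vmn2r121 on chromosome X (chrX:124124961-124135952), which was higher in females, so that 0 of those passing were higher in males (0.152% of all genes). Of the other 40 members the lowest FDR was 0.26, and LFCs of males against females ran up to 0.44.

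Vmn2r121 was higher in females within each strain. B6 females had 2885 to 3800 counts and males 1585 to 1973. In 129 the ranges were 3826 to 4065 and 1598 to 2610, in SJL 3696 to 4828 and 2404 to 2794, and in SWR 3397 to 4056 and 2054 to 2711. In all 4 strains each female was above each male, and the ratio of female to male means was 1.88 for B6, 1.97 for 129, 1.69 for SJL and 1.56 for SWR. The LFC of males against females within a strain was -0.91 ± 0.12 for B6, -0.98 ± 0.12 for 129, -0.75 ± 0.12 for SJL and -0.65 ± 0.12 for SWR, with the largest FDR in SWR (0.00398), and the interaction of sex and strain did not pass (FDR = 0.72). Strain medians of Vmn2r121, 2429 to 3245, differed by 1.34 times.

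**Figure D5:**
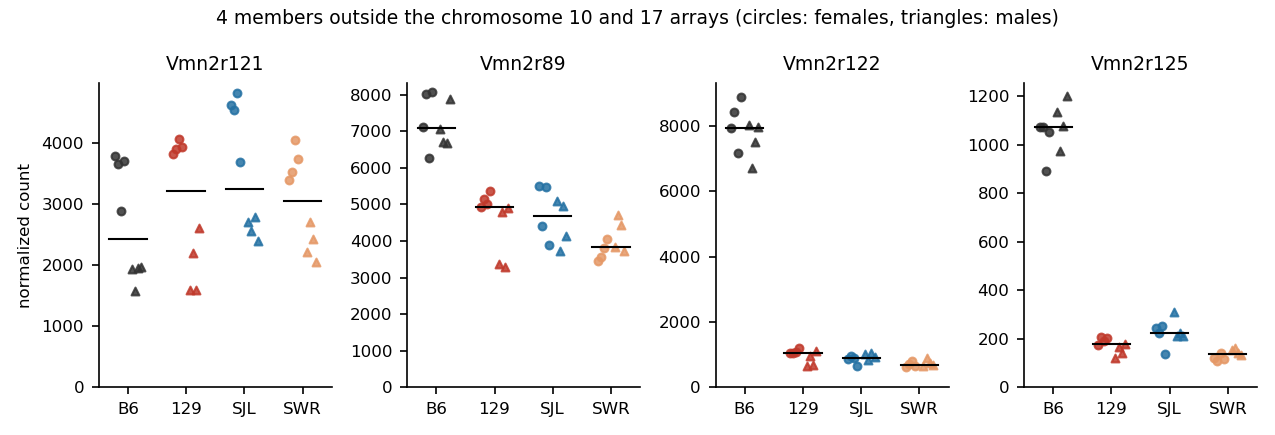
Normalized counts from 0 for the 4 members outside chromosomes 10 and 17, 1 point per library, circles for females and triangles for males, with the strain median as a bar. Females lie above males in every strain for Vmn2r121, while Vmn2r122 and Vmn2r125 are set apart by B6 and not by sex.

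The interaction of sex and strain was passed by 0 members at an edgeR FDR of 0.05 (background 0.0163%), with 7 at an unadjusted p under 0.05 (8.94% of all genes). DESeq2 passed 1 member and edgeR without the filter on low counts 2, in each case including Vmn2r98 (FDR = 0.014 and 0.00108, against 0.14 in the reported fit). The share of all genes passing was not counted in these fits, so these counts cannot be set against a background. Vmn2r98 was higher in SJL males (47.5 to 120) than in SJL females (28.03 to 35.5), with an LFC of 1.21 ± 0.24 (edgeR FDR = 0.0152). Within SJL, 10 of the 18382 genes had an absolute LFC above 1 at an FDR under 0.05, Vmn2r98 among them. Its FDR missed the limit of 0.01 used for sex over all strains. Without SJL male 1 the LFC was 0.83 ± 0.21 (FDR = 0.18). In 129 the LFC of Vmn2r98 in males against females was -0.75 ± 0.29, and in B6 and SWR 0.49 and 0.41, with FDRs of 0.49 or more.

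Other genes of the basal neuron were compared as a list. Of 29 listed genes (Gnao1, family C receptors, H2-Mv genes, channels and factors) 26 were tested, and Kcnj6, H2-M2 and Trpc2, which is listed at 0 reads, were not. In the pairs with 129 the list had 1 gene higher (8.72% of all genes) and 1 lower (2.4%) in B6, 1 higher in SJL (5.61%) and 3 higher in SWR (4.62%). Between SJL and B6 there were 2 higher (2.67%) and 1 lower (5.33%) in SJL, between SWR and B6 2 higher (2.52%) and 1 lower (5.53%) in SWR, and between SWR and SJL 3 higher in SWR (2.19%). Counts of 1 to 3 in 26 are too few to set the list apart from these shares. By smallest FDR the list was led by Vmn2r5, a family C partner receptor, which had a median of 206 in B6 against 943 in SJL (LFC 2.09 ± 0.08, FDR = 9.04e-21), followed by the H2-Mv genes H2-M10.2, with medians of 811 in B6 and 2083 in SJL (LFC 1.28 ± 0.06, FDR = 5.91e-18), and H2-M10.4, with medians of 576 in SJL and 1730 in SWR (LFC 1.67 ± 0.08, FDR = 1.01e-17). Gnao1 itself had medians of 1475 (B6), 1865 (129), 1546 (SJL) and 1630 (SWR).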

How the data were processed

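VNO RNA of 32 mice was prepared by the authors as stranded, ribodepleted libraries and read as 125 bp pairs. They trimmed the reads, placed them with STAR 2.5.2b on GRCm38 (Ensembl 87 genes) and deposited raw counts of uniquely placed pairs and normalized values, a signal obtained by dividing each count by its library's DESeq2 size factor. Trim Galore, bcl2fastq and DESeq2 are named in the submitters' processing notes. Of 49671 genes, 49412 were found in GENCODE M21 by identifier, which gave coordinates and exon lengths.

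Raw counts were tested with edgeR 4.0.16 (R 4.3.3, limma 3.58.1): TMM, filterByExpr over the 8 groups, and the quasi-likelihood test on 18382 genes, 41 of 41 members among them. Strain pairs had sex as covariate (absolute LFC above 1, FDR under 0.05) and sex had strain as covariate (FDR under 0.01). The interaction was an F test (FDR under 0.05). FDR is Benjamini-Hochberg over all genes tested. SEs are approximate, as absolute LFC over the square root of F. DESeq2 1.42.0 served as alternative. The steps were tested on simulated data.

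Library background was rpm over 268 genes of other tissues. Coding sequences came from GENCODE M21 and start windows from RefSeq (GRCm38.p6). Identity was computed on aligned coding nucleotides, since no protein table was used here. Shared stretches of read length are those of the coding sequences only. Window pairs were aligned with Biopython 1.88. Libraries of a group (48 pairs) differed by more than sampling noise (chi-square per degree of freedom 2.71 or more). Depth was 5106398 to 18640871 reads, which limits members below about 10 reads.

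Members with values in the text are the 22 DE in a pair, each with its largest LFC, the 5 highest per kb of exon, those passing by sex or interaction, and close copies. Genes such as Vmn2r105 and Vmn2r93 are examples chosen after their values were seen. Members and lists were chosen with earlier results of these data known. Leaving out the 129 males 1 and 3 together was chosen after seeing the data.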

Additional observations from a re-analysis of the deposited data

Results flagged for a closer look

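Within a strain, the highest or lowest of the 8 libraries stood far from the rest in 13 of 164 combinations of member and strain by Dixon's criterion, which chance alone meets in about 5% of groups. SJL male 1 accounted for 4 of them, each as the highest SJL library, with 74.9 normalized counts of Vmn2r80 (next library 41.2), 120 of Vmn2r98 (60.5), 180 of Vmn2r99 (98.5) and 49.4 of Vmn2r101 (28.8). Its background on genes of other tissues, 9.34 rpm, was the highest of the SJL libraries, whose lowest was 2.13, and its part in these values was not tested. B6 female 2, with the highest background of all libraries (29.3 rpm), was highest in B6 for Vmn2r102 (691) and Vmn2r109 (22.2). SWR male 2 was highest in SWR for Vmn2r84 (1662) and Vmn2r118 (1243). The other flags were B6 male 2 in Vmn2r91 (25.4), B6 male 1 in Vmn2r99 (288), SJL male 4 in Vmn2r100 (434), SWR female 2 in Vmn2r103 (30.4), and SJL female 4, the lowest SJL library, in Vmn2r90 (577).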

How the results depend on the processing

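Of the 70 strain calls of members, all 70 were made again by DESeq2, with DESeq2 size factors and without the filter on low counts, and 69 with the background covariate. With replicate number as a block all 70 were made again and counts by pair did not change (16 for B6 vs 129, 3 for SWR vs SJL). The labels do not say what the number stands for, and it does not pair the libraries, since deviations of libraries with the same number correlated at a median of -0.01 and 5 of 32 libraries correlated best with their own number. Scaled to other V2r reads 63 were kept. In males alone 68 and in females alone 65 were kept, and females alone gave 5 members for SWR vs SJL. With no limit on fold the counts were 31 (B6 vs 129), 31 (SJL vs 129), 36 (SWR vs 129), 28 (SJL vs B6), 26 (SWR vs B6), 20 (SWR vs SJL), 41 in any pair and 1 by sex, with the shares over all genes given above. The interaction gave 1 member by DESeq2 and 2 without the filter (Vmn2r98 and Vmn2r113), where more genes were tested. The shares of all genes passing in these fits were not counted. The cause of these changes was not tested. Leaving out 1 library gave 15 to 17 members for B6 vs 129, 11 to 14 for SJL vs 129, 15 to 17 for SWR vs 129, 14 for SJL vs B6, 8 to 9 for SWR vs B6, 2 to 5 for SWR vs SJL, 21 to 24 in any pair, and 0 by sex and by interaction. SWR vs SJL had 5 without SJL male 1 (Vmn2r80 and Vmn2r103 added) and 5 without SJL male 3 (Vmn2r103 and Vmn2r113 added). In the fits without 1 library 5 calls were lost, those of Vmn2r95 (B6 vs 129), Vmn2r117 (SWR vs 129, 0.96 without 129 male 1 and 0.997 without 129 male 3), Vmn2r109 (SWR vs SJL, 0.98 without SJL female 4), and Vmn2r94 (0.998) and Vmn2r98 (0.97) for SJL vs 129 without SJL male 1. No named LFC changed sign in any alternative. Ranking strains by CPM kept the highest strain of 38 members and the lowest of 39. Exon lengths came from a later annotation than the authors', which affects levels per kb.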
